A study of Homo sapiens with 48 samples.

Results

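The 41 genes described here are interferon-stimulated genes, a module of antiviral sensors, transcription factors and effector proteins. They were chosen by name from the textbook interferon response, with earlier results of these data known. The rows of each table that carry one of the 41 gene symbols were taken, out of 16495 symbols in all. All 41 were analysed in RNA-seq and 37 in GRO-seq, where IRF9, IFITM1, RSAD2 and CMPK2 were not analysed here. The cells were MCF10A-1, a line of human breast epithelial origin, which stably carried either a vector or a SATB1 expression construct (SATB1 is a nuclear protein that organises chromatin). Both kinds of cell were left untreated or given benzo[a]pyrene at 4 µM, a combustion product and ligand of the aryl hydrocarbon receptor (AHR), with exposures of 3 hours and 3 days. Each assay had 24 libraries, in 6 groups of 4. One treatment text gives the short exposure another length, and the titles and characteristics were followed. All groups shared a medium with fetal bovine serum in place of horse serum, epidermal growth factor, hydrocortisone, insulin and cholera toxin. The labels do not say whether the SATB1 cells are 1 clone, nor whether replicate libraries are separate cultures. The p-values may therefore rest on technical spread alone.

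GRO-seq labels new RNA as polymerases already on a gene run on in nuclei taken from the cells, and so reads transcription in progress, while RNA-seq reads the accumulated RNA. In such bulk samples, fewer cells expressing a gene and less RNA per cell cannot be told apart. The authors' deposited table for each assay gives a fold change (a linear ratio) and a p-value for every gene in each of 5 contrasts. Its headers number the contrasts without naming their groups, so only the number is given here. A gene is called higher where its fold change is above 1 and lower where it is below 1. Contrasts may share control libraries, so their values are set side by side without a test between them. A gene was called when its p-value, adjusted by the Benjamini-Hochberg method over all genes of the contrast, was under 0.05. The value after ± is the standard error of the log2 fold change implied by the fold change and its p-value. Its median over all genes was 0.319 in GRO-seq and 0.0577 in RNA-seq, so a given fold change was measured far less precisely in GRO-seq. Levels and depth are not given in the tables, so neither the expression level of a gene nor the cell type of the libraries could be checked from levels.

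Type I and type III interferons bind receptors at the cell surface and activate the kinases JAK1 and TYK2, which phosphorylate STAT2. With IRF9 it takes part in a complex that binds the interferon-stimulated response element in the promoters of target genes. Interferon gamma acts through gamma-activated sites, and IRF1 and IRF7 can bind elements of the first kind without the complex. Epithelial cells, those of the breast included, keep a low level of many of these genes without infection, and the induced proteins block virus entry, replication and release, degrade RNA and slow growth.

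Promoter sequences of members that the results turn on are printed because the response element is what the module is known to share. RefSeq windows on GRCh38.p14, from 250 bases before to 50 after a start, matched 33 of the 41 genes by symbol; IRF7, USP18, OAS2, OASL, IFIT2, IFITM2, MX2 and TRIM22 had no entry. In the lines that follow the capitals mark the core of that element, GAAA followed by any 2 bases and a second GAAA, or its reverse complement, and each stretch is read 5′ to 3′ on the strand of its gene. They lie at chr1:1013362-1013421 on the plus strand (ISG15), chr10:89392485-89392551 plus (IFIT1), chr14:94110606-94110672 plus (IFI27), chr19:17405723-17405782 minus (BST2), chr1:78620353-78620406 plus (IFI44L), chr7:93118084-93118137 minus (SAMD9), chr10:89414501-89414567 plus (IFIT5), chr3:122680788-122680838 plus (PARP14), chr13:42992260-42992313 minus (EPSTI1), chr11:313978-314031 plus (IFITM1) and chr11:320864-320934 minus (IFITM3).
ISG15: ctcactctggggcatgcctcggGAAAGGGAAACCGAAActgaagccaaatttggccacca
IFIT1: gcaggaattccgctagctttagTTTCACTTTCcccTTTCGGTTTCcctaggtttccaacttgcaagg
IFI27: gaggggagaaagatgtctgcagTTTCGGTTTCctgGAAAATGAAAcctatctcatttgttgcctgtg
BST2: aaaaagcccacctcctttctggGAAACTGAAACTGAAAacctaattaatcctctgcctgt
IFI44L: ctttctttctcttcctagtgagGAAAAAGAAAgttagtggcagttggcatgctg
SAMD9: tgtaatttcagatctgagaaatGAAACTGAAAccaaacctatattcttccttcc
IFIT5: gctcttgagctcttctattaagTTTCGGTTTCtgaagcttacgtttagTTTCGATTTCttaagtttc
PARP14: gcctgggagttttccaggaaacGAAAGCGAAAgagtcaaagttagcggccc
EPSTI1: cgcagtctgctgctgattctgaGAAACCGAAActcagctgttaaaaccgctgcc
IFITM1: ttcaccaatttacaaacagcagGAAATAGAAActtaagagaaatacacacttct
IFITM3: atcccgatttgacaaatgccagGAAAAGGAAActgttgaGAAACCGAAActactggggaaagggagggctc

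On either strand, the core was found in the windows of 23 of the 33 matched genes (69.7%), against 4.38% of all 27305 genes with a window and 3.57% of all 35116 windows. It occurred at 44 places in the 23 genes, once in 8 genes, at 2 places in 10 and at 3 or more in 5. In ISG15, BST2, IFIH1 and HERC5 a pair of matches overlapped, 6 bases apart, as the unbroken capitals of ISG15 and BST2 show. PARP9 and DTX3L, which are transcribed away from each other, held the same match, at chr3:122564332-122564341. The first base of a match lay between -196 and 11 bases of the start, with a median of -93.5, and the printed stretches end before the start. The 10 matched genes without the core were DDX58, STAT2, IRF1, IRF9, HERC6, OAS1, CMPK2, SAMD9L, IFI35 and XAF1. The core of the gamma-activated site, TTCNNNGAA, was in 11 of the 33 genes (33.3%) against 9.38% of all genes. GCGTG, the core of the element that AHR binds, was in 8 of 33 (24.2%) against 40.6%. A match describes letters in the window and not binding.

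**Figure D1:**
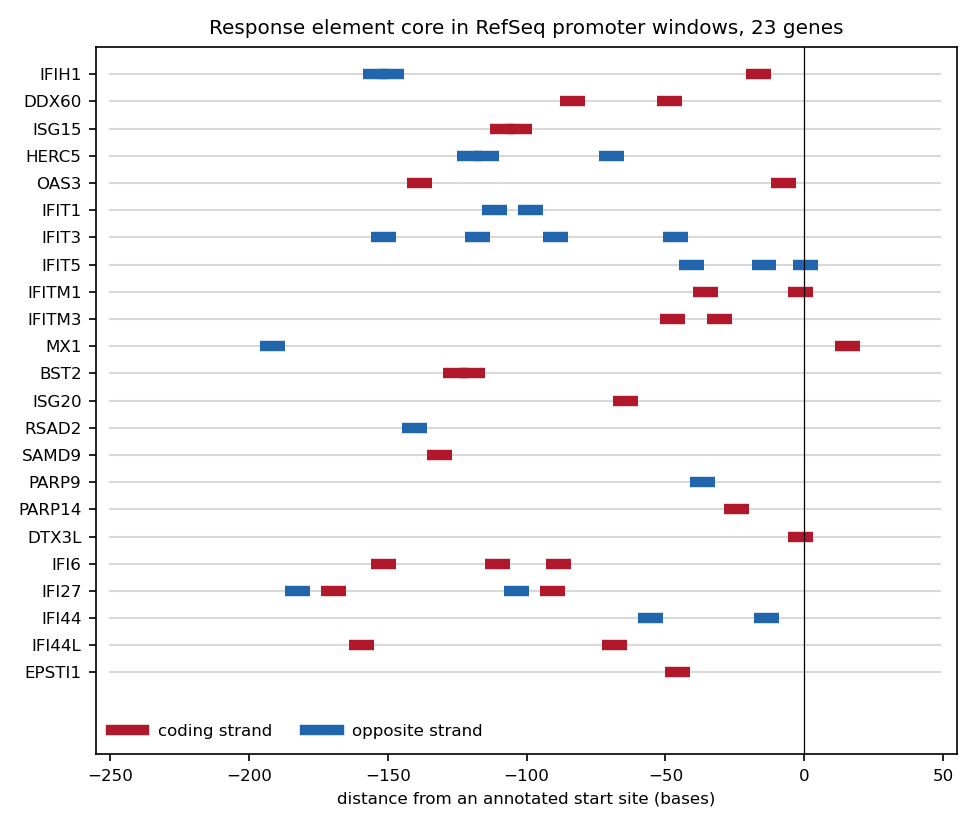
Matches of the interferon-stimulated response element core in the RefSeq windows of the 23 genes that hold it; the x axis is the distance in bases from an annotated start, each line is a gene, and red bars are matches on the coding strand and blue bars on the opposite strand. IFI27 and IFI44 have windows from 2 starts, so 1 place can appear at 2 distances; the matches begin between -196 and 11 bases of a start.

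The module as a whole had no single direction. In RNA-seq contrast 1, the contrast in which SATB1 itself was 112-fold higher per the authors' deposited table, 16 of the 41 genes were higher and 8 lower (58.5%), where 43.9% of all genes were called, 23.2% higher and 20.7% lower. In RNA-seq contrast 2, 1 was higher and 2 lower, where 19.3% of all genes were called (9.64% higher, 9.63% lower). In RNA-seq contrast 3, 8 were higher and 5 lower, a share of 31.7% against 36.1% of all genes (18.3% higher, 17.8% lower). In RNA-seq contrast 4, 1 was higher and 2 lower, against 8.77% of all genes (3.87% higher, 4.9% lower). In RNA-seq contrast 5, 5 were higher and 4 lower, against 21.4% of all genes (10.5% higher, 10.9% lower). The share of members called was thus above that of all genes in contrast 1, below it in contrast 2 (7.32% of the members), and near it in contrasts 3, 4 and 5. With at least 1.5-fold required as well, contrast 1 had 4 members higher and 6 lower, so higher members no longer outnumbered lower ones. The share of all genes called at that setting was not computed, so these counts are not set against it. The median log2 fold change of the members lay between -0.02 and 0.08 in the 5 RNA-seq contrasts, against -0.01 to 0.01 for all genes. The members were measured less precisely than most genes, with a median implied standard error of 0.14 or 0.15 in each RNA-seq contrast against 0.06 for all genes.

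In GRO-seq contrast 1, 0 of the 37 genes were called, where 0.787% of all genes were (0.292% higher, 0.495% lower). In GRO-seq contrast 2, 1 was higher and 1 lower, against 15.5% of all genes (7.63% higher, 7.83% lower). In GRO-seq contrast 3, 4 were higher and 1 lower, against 18.1% of all genes (9.23% higher, 8.92% lower). In GRO-seq contrast 4, 0 were called, against 3.11% of all genes (1.58% higher, 1.53% lower), and in contrast 5, 0 against 0.237% (0.115% higher, 0.122% lower). These calls, like those of RNA-seq, rest on the deposited p-values, whose columns carry in both assays the name limma gives them. The counts at an unadjusted p under 0.05 were 4, 6 and 3 of the 37 members in contrasts 1, 4 and 5. Of all genes 14.7%, 15.6% and 11.5% were under it, so none of these counts stands out from the background. The members were measured less precisely than most genes here too. Their median implied standard error lay between 0.46 and 0.51 in the 5 GRO-seq contrasts, against 0.32 for all genes. In contrasts 1, 4 and 5, 18.9%, 24.3% and 8.11% of members changed at least 2-fold, against 9.42%, 10.4% and 8.43% of all genes. The part of precision in the counts of called members was not tested. The median log2 fold change of the members was 0.09, -0.10, 0.56, -0.16 and 0.32 in contrasts 1 to 5, where that of all genes stayed between -0.02 and 0.01. In contrast 3, 33 of the 37 members (89.2%) had a fold change above 1, against 49.6% of all genes. Over the 5 RNA-seq contrasts 11 members were never called, 16 were called once, 8 in 2 contrasts, 5 in 3 contrasts and 1, IFITM2, in all 5. In GRO-seq 32 were never called, 3 were called once and 2 in 2 contrasts.

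**Figure D2:**
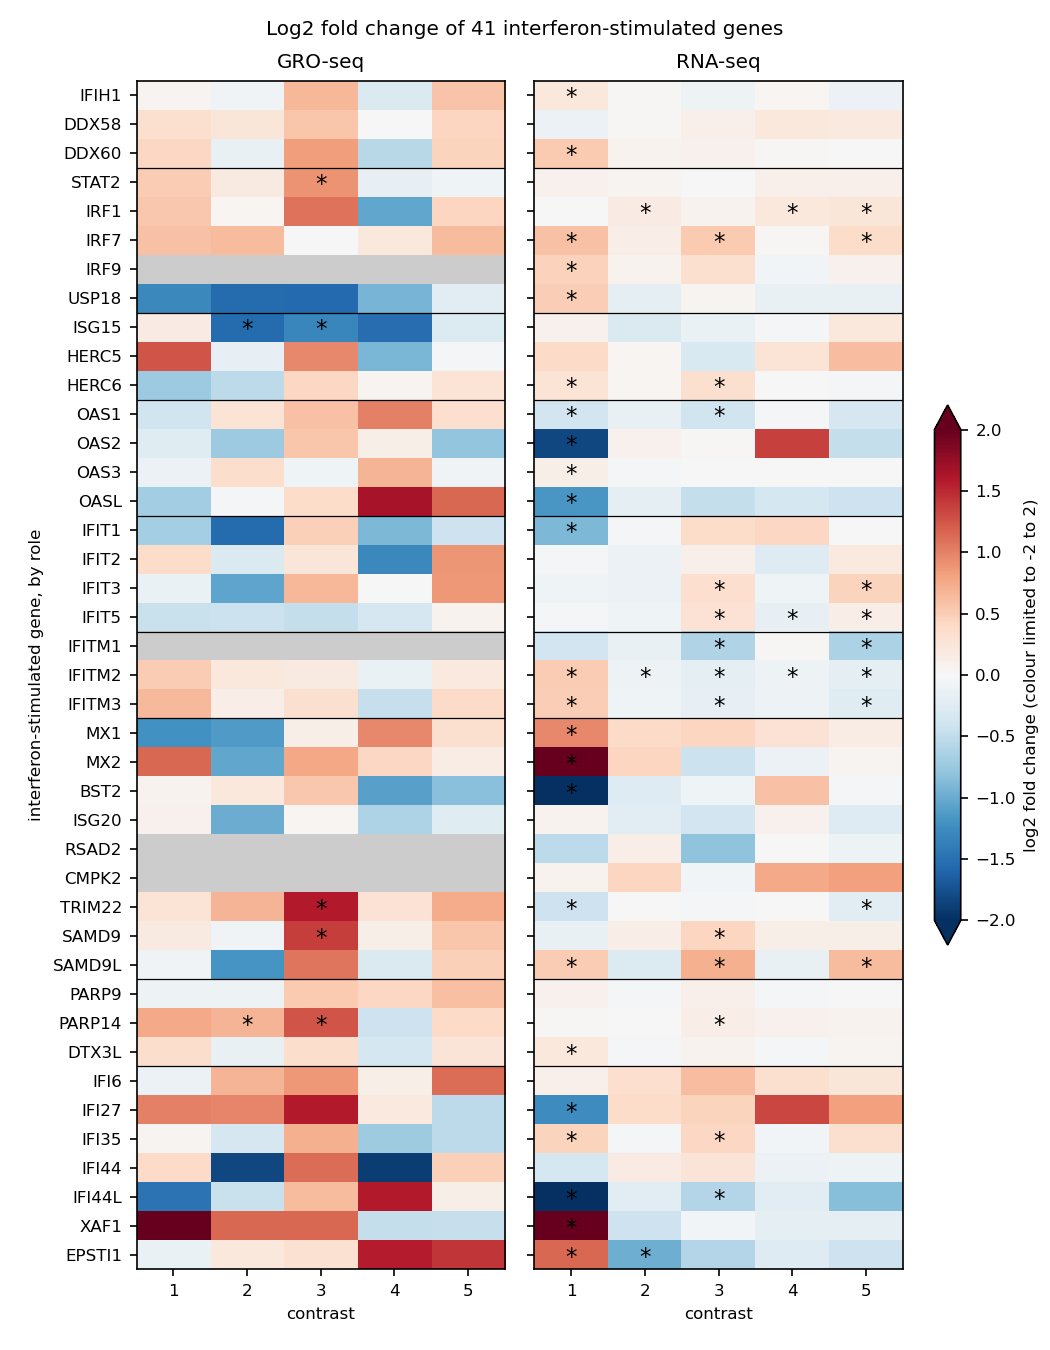
Log2 fold change of the 41 genes (rows, grouped by role) in contrasts 1 to 5 of GRO-seq and RNA-seq (columns), with colour for the log2 fold change, limited to -2 and 2, asterisks for called values and grey for the 4 genes not analysed in GRO-seq. Called values are most frequent in RNA-seq contrast 1, and GRO-seq contrast 3 is above 0 in 33 of 37 genes.

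In RNA-seq contrast 1, 8 of the 41 genes (19.5%) had a fold change of at least 2-fold in either direction, against 9.44% of all genes, the largest such share of members among the 5 RNA-seq contrasts. MX2, a GTPase that blocks the nuclear entry of retroviral genomes, was 84.5-fold higher in the authors' deposited table (log2 6.40 ± 0.41, adjusted p = 5.4e-14). XAF1, which counters the apoptosis inhibitor XIAP, was 44.5-fold higher there (log2 5.48 ± 0.45, adjusted p = 1.6e-11). At the other end BST2, known as tetherin because it holds budding virions at the cell surface, was at 0.0977 of the compared level (log2 -3.36 ± 0.32, adjusted p = 2.8e-10). The extremes were thus 3 antiviral or death-promoting genes that went opposite ways. BST2 carries the doubled core printed above, MX2 had no window, and XAF1 had a window without the core.

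The other genes that rose in that contrast rose less. EPSTI1, known for its induction in breast epithelium beside stromal cells, was 2.23-fold higher, and MX1, the GTPase that traps viral nucleoproteins, 1.96-fold higher in the authors' deposited table. All 3 called genes among the transcription factors and feedback genes rose: IRF7, which amplifies interferon production, stood at 1.496, IRF9, the DNA-binding part of the STAT complex, at 1.38, and USP18, which removes ISG15 and blocks the receptor, at 1.41. Among the RNA sensors, DDX60, a helicase, rose 1.43-fold and IFIH1, the sensor of long double-stranded RNA, 1.16-fold, while DDX58, the sensor RIG-I, stood at 0.921 and was not called. SAMD9L, a restraint on growth and virus translation, rose 1.42-fold and IFI35 1.36-fold in the authors' deposited table. HERC6, the ISG15 ligase of mouse, rose 1.21-fold, DTX3L, the ubiquitin ligase that pairs with PARP9, 1.15-fold and OAS3 1.09-fold there. IFITM2 at 1.43 and IFITM3 at 1.41, which stop viruses at endosomal membranes, had implied standard errors of only 0.032 and 0.037, and adjusted p-values of 3.0e-14 and 1.3e-12.

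Of the 8 genes that fell in the same contrast, 3 were of the OAS family. Of that family, whose enzymes make the 2-5A signal that switches on RNA decay, 3 of 4 fell and 1 rose. In the authors' deposited table OAS2 stood at 0.283 (log2 -1.82 ± 0.52, adjusted p = 0.0049), OASL at 0.448 and OAS1 at 0.764, while OAS3 stood at 1.09. IFI44L, an inducible cytoplasmic protein, was at 0.243 (log2 -2.04 ± 0.25, adjusted p = 6.0e-08). IFI27, a small membrane protein, was at 0.417 (adjusted p = 0.048), IFIT1, which binds uncapped or unmethylated RNA, at 0.537 (adjusted p = 0.036), and TRIM22, an E3 ligase that restricts viruses, at 0.750 (adjusted p = 1.1e-09). The remaining 17 members were not called, and their fold changes lay between 0.695 (RSAD2, viperin) and 1.30 (HERC5, the main ISG15 ligase in human cells). The genes with the core in their window were 7 higher and 4 lower of 23, and those without it 5 higher and 1 lower of 10. Of all genes 23.2% were higher and 20.7% lower. Genes that had no window are in neither count, among them MX2, IFITM2, IRF7 and USP18, called higher, and OAS2, OASL and TRIM22, called lower. Whether the genes with and without the core differed was not tested.

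**Figure D3:**
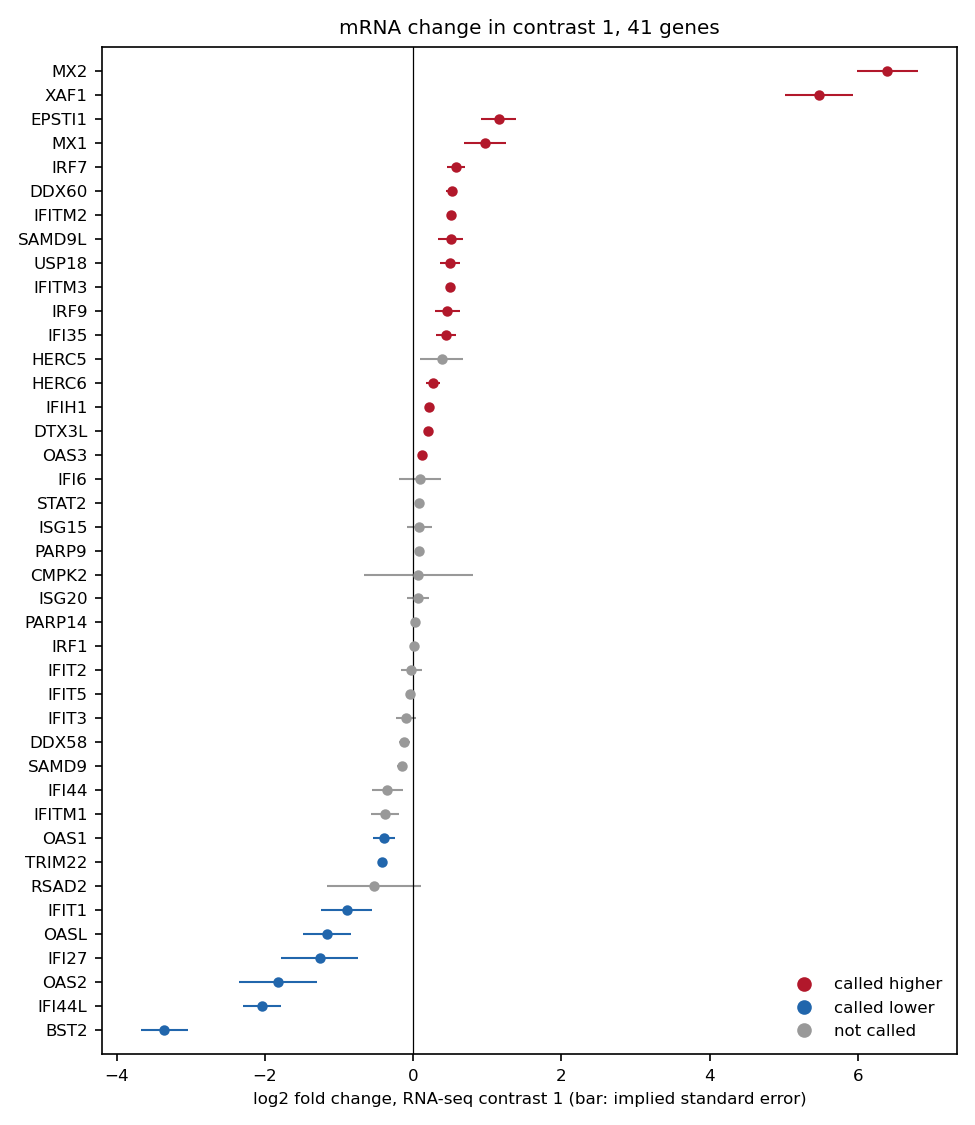
Log2 fold change of each of the 41 genes in RNA-seq contrast 1 (x axis), sorted by size, with bars for the implied standard error and colour for the call. MX2 at 6.40 and XAF1 at 5.48 stand apart above, BST2 at -3.36 stands apart below, and 16 genes were called higher and 8 lower.

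Other large fold changes stood beside these in contrast 1. In the authors' deposited table for RNA-seq, the neighbouring chromosome 9 genes CDKN2A, CDKN2B and MTAP were 301-fold, 50.4-fold and 31.1-fold higher. CD163, a macrophage marker, was 302-fold higher, and of the 9 leukocyte markers analysed 2 were higher (CD163, and HLA-DRB1 at 3.40) and 1 lower (ITGAM at 0.351). Of the fibroblast markers 5 were higher and 1 lower of 9, and of the endothelial markers none was higher and 4 were lower of 5. Epithelial markers gave 3 higher and 4 lower of 7. Of all genes 23.2% were higher and 20.7% lower. Whether the cells on both sides of this contrast differ in more than the construct was not tested.

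The implied standard errors of the extreme genes followed a pattern across RNA-seq contrasts. MX2 had 0.55 and 0.57 in contrasts 2 and 3 and 0.14 in each of contrasts 4 and 5. XAF1 had 0.61 in contrasts 2 and 3 and 0.20 in contrasts 4 and 5, and EPSTI1 had 0.30 and 0.29 against 0.21 and 0.22. The genes that fell in contrast 1 had the reverse. BST2 had 0.17 and 0.16 in contrasts 2 and 3 and 0.39 and 0.42 in contrasts 4 and 5. IFI44L had 0.18 and 0.19 against 0.32 and 0.35, and OAS2 had 0.40 in both against 0.54 and 0.65. SATB1 itself had 0.18 and 0.19 in contrasts 2 and 3 against 0.033 and 0.032 in contrasts 4 and 5. The levels behind these errors are not given in the tables, and their part in the pattern was not tested.

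**Figure D4:**
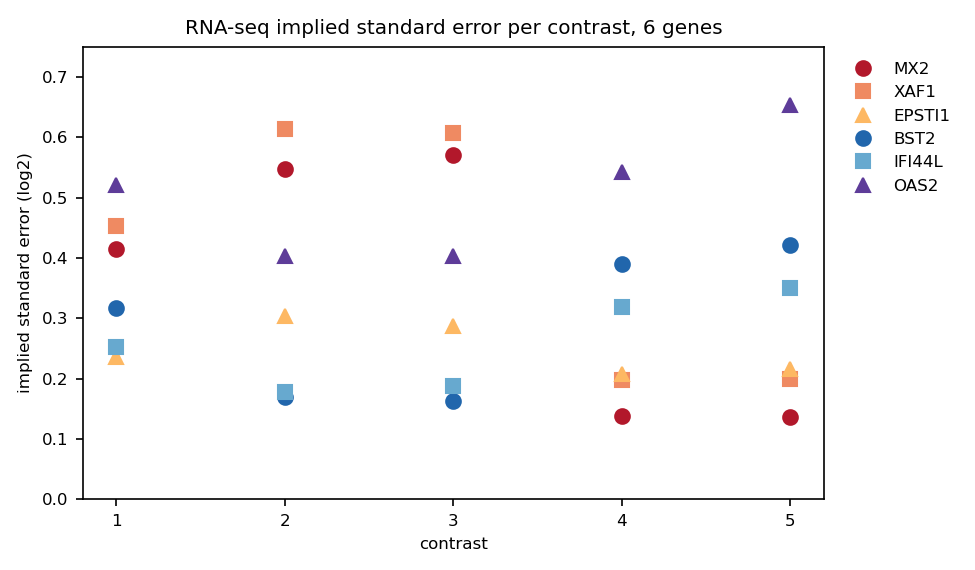
Implied standard error on the log2 scale (y axis) in RNA-seq contrasts 1 to 5 (x axis) for 3 genes higher in contrast 1 (MX2, XAF1, EPSTI1) and 3 lower (BST2, IFI44L, OAS2). The first 3 have the wider error in contrasts 2 and 3, and the last 3 in contrasts 4 and 5.

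In nascent transcription, none of the 3 extreme changes of contrast 1 was called at the precision of GRO-seq. In the authors' deposited table for GRO-seq, MX2 stood at 2.21 (log2 1.14 ± 0.68), XAF1 at 7.60 (log2 2.93 ± 1.0) and BST2 at 1.05 (log2 0.08 ± 0.77). XAF1 was thus above 1 in both assays, with a deposited GRO-seq p of 0.0090 before adjustment. The test of the difference between assays took the RNA-seq minus the GRO-seq log2 fold change over 13772 genes, assuming that a contrast number means the same comparison in both tables. It called 3 members in contrast 1, where 5.98% of all genes were called. MX2 was higher in RNA-seq by 5.26 ± 0.80 on the log2 scale (adjusted p = 5.7e-05). BST2 differed by -3.43 ± 0.83 (adjusted p = 0.012). PARP14, a mono-ADP-ribosyltransferase, differed by -0.74 ± 0.21 (adjusted p = 0.037). XAF1 was not called by this test, so its change was not shown to differ between assays. Over all 13772 genes, 49.5% changed in the same direction in both assays in contrast 1. Of 82 genes called in both, 44 went the same way and 38 opposite ways. In contrasts 2, 4 and 5 the share with the same direction was 59.6%, 55.6% and 47.6%. Whether a contrast number means the same comparison in both assays was not tested.

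In contrast 3, nascent transcription of 4 members rose and that of 1 fell (10.8% and 2.7% of the 37). Of all genes 9.23% were called higher and 8.92% lower, so the share that rose was near that of all genes. TRIM22 was 3.00-fold higher in the authors' deposited table for GRO-seq (log2 1.59 ± 0.26, adjusted p = 1.9e-04). SAMD9, a growth-restraining antiviral protein, was 2.61-fold higher (log2 1.39 ± 0.36, adjusted p = 0.0099), PARP14 was 2.40-fold higher (log2 1.26 ± 0.20, adjusted p = 1.5e-04) and STAT2 was 1.87-fold higher (log2 0.90 ± 0.26, adjusted p = 0.016). ISG15, the ubiquitin-like modifier, was the single member that fell, to 0.403 (log2 -1.31 ± 0.46, adjusted p = 0.048). At an adjusted p under 0.1, 10 members were higher, where 12.3% of all genes were. The 6 added were the sensors IFIH1 (1.59), DDX58 (1.47) and DDX60 (1.79), then IRF1 (2.13), PARP9 (1.44) and IFI27 (3.00), as given in the authors' deposited table.

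The RNA of those genes had smaller fold changes. In the authors' deposited table for RNA-seq contrast 3, TRIM22 stood at 0.986, STAT2 at 1.00, PARP14 at 1.10 and SAMD9 at 1.35, of which SAMD9 and PARP14 were called higher. These were the 2 members called in both assays in 1 contrast. The difference between assays was called for 4 members, each with RNA-seq below GRO-seq, where 22.5% of all genes were called and 11.1% with RNA-seq below. TRIM22 differed by -1.61 ± 0.27 (adjusted p = 1.1e-04), PARP14 by -1.13 ± 0.21 (adjusted p = 3.1e-04), STAT2 by -0.90 ± 0.26 (adjusted p = 0.014) and IFIH1 by -0.76 ± 0.26 (adjusted p = 0.039). In contrast 2 the difference was called for PARP14 alone, by -0.68 ± 0.21 (adjusted p = 0.034, 13.2% of all genes called). No member was called in contrast 4 (2.58% of all genes) or contrast 5 (0.951%), with 8 and 5 of the 37 members at an unadjusted p under 0.05, where 14.3% and 13.8% of all genes were.

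**Figure D5:**
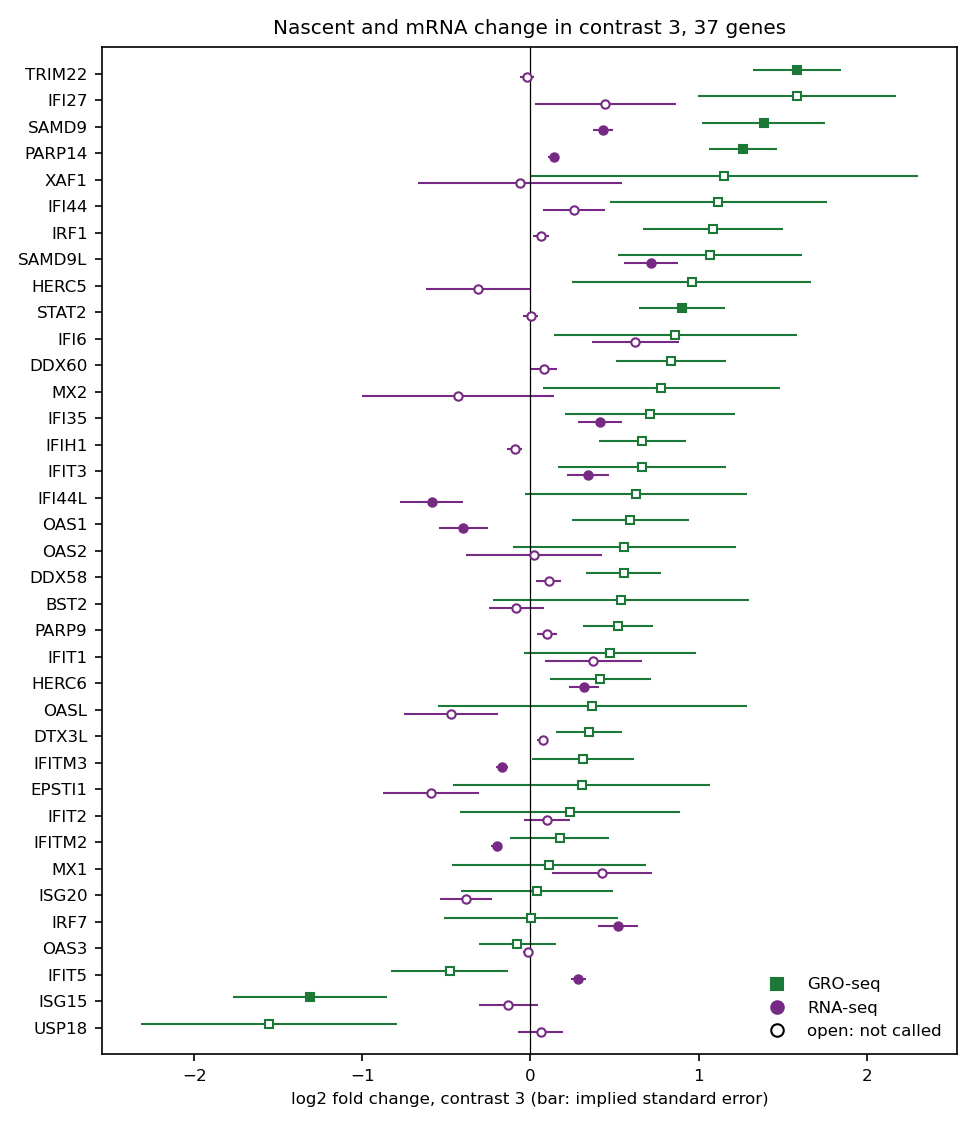
Log2 fold change in contrast 3 (x axis) of the 37 genes analysed in both assays (rows), with green squares for GRO-seq, purple circles for RNA-seq, filled symbols for called values and bars for the implied standard error. In GRO-seq 33 of the 37 squares lie above 0, while TRIM22 and STAT2 lie near 0 in RNA-seq.

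TRIM22, PARP14 and ISG15 differed in how their nascent signal and their RNA were placed across contrasts. TRIM22 stood at 1.21, 1.61, 3.00, 1.22 and 1.67 in contrasts 1 to 5 of the authors' deposited table for GRO-seq. Its RNA stood at 0.750, 0.994, 0.986, 0.995 and 0.854 in the authors' deposited table for RNA-seq, with contrasts 1 and 5 called lower. All 5 GRO-seq values were thus above 1, with contrast 3 alone called. The RNA-seq values were below 1, but those of contrasts 2, 3 and 4 lay within their implied standard errors of it. PARP14 stood at 1.69, 1.60, 2.40, 0.752 and 1.31 in the authors' deposited table for GRO-seq, called in contrasts 2 and 3. Its RNA stood at 1.02, 1.00, 1.10, 1.06 and 1.05 in the authors' deposited table for RNA-seq, called in contrast 3. Those RNA values span a narrow range beside the nascent ones, as the fold changes of all genes did in each contrast. The implied standard errors of PARP14 were 0.20 to 0.21 in GRO-seq and 0.033 to 0.034 in RNA-seq. ISG15 stood at 1.12, 0.344, 0.403, 0.349 and 0.830 in the authors' deposited table for GRO-seq, called in contrasts 2 and 3 (adjusted p = 0.024 and 0.048), with an adjusted p of 0.060 in contrast 4. Its RNA stood at 1.06, 0.816, 0.913, 0.978 and 1.15 in the authors' deposited table for RNA-seq, called in none. The nascent signal of ISG15 fell in contrasts 2 and 3 without a called change of its RNA, and the difference between assays was not called either.

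STAT2, the interferon-specific STAT, stood at 1.42, 1.14, 1.87, 0.894 and 0.944 in the authors' deposited table for GRO-seq and was called in contrast 3. Its RNA stood at 1.06, 1.04, 1.00, 1.07 and 1.07 in the authors' deposited table for RNA-seq and was called in none. SAMD9 stood at 1.13, 0.957, 2.61, 1.08 and 1.47 in the authors' deposited table for GRO-seq. That of its RNA was 0.899, 1.09, 1.35, 1.08 and 1.08 in the authors' deposited table for RNA-seq, with contrast 3 called (adjusted p = 8.6e-07). Contrast 3 was the highest of the 5 for SAMD9 in both assays. SAMD9L, its paralogue 12076 bases away, stood at 1.42, 0.827, 1.64, 0.905 and 1.55 in the authors' deposited table for RNA-seq, called higher in contrasts 1, 3 and 5. In GRO-seq it stood at 0.949, 0.444, 2.10, 0.817 and 1.39 in the authors' deposited table, called in none, with implied standard errors from 0.55 to 0.71. Both genes rose in RNA-seq contrast 3. SAMD9L was also called in contrasts 1 and 5, and whether the paralogues differed there was not tested.

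Among the transcription factors, IRF7 and IRF1 were each called higher in 3 RNA-seq contrasts, both of them in contrast 5. IRF7 stood at 1.496, 1.10, 1.43, 1.02 and 1.29 in the authors' deposited table for RNA-seq and was called higher in contrasts 1, 3 and 5 (adjusted p = 2.4e-04, 0.0010 and 0.012). In GRO-seq it stood at 1.504, 1.55, 1.00, 1.16 and 1.56 in the authors' deposited table and was called in none. IRF1, the factor of the gamma and inflammatory response, stood at 1.01, 1.12, 1.05, 1.16 and 1.18 in the authors' deposited table for RNA-seq and was called higher in contrasts 2, 4 and 5 (adjusted p = 0.014, 0.0029 and 3.3e-04). Its GRO-seq values were 1.46, 1.03, 2.13, 0.485 and 1.35 in the authors' deposited table, with none called. IRF1 was the single member higher in RNA-seq contrasts 2 and 4, in which CYP1A1, the classic AHR target, stood at 195 and 45.6 in the authors' deposited table. CYP1A1 stood there at 36.0 in contrast 3 and 4.79 in contrast 5.

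The 3 IFITM genes were all called the same way in RNA-seq contrasts 3 and 5, and not in the other contrasts. IFITM2 stood at 1.43, 0.928, 0.870, 0.929 and 0.876 in the authors' deposited table for RNA-seq, called in all 5 contrasts, higher in the first and lower in the others. IFITM3 stood at 1.41, 0.939, 0.889, 0.927 and 0.845 in the authors' deposited table for RNA-seq, called higher in contrast 1 and lower in contrasts 3 and 5. IFITM1 stood at 0.771, 0.900, 0.660, 1.02 and 0.648 in the authors' deposited table for RNA-seq, called lower in contrasts 3 and 5. All 3 genes fell in contrasts 3 and 5, by at most 0.63 on the log2 scale. In GRO-seq, IFITM2 stood at 1.42, 1.15, 1.13, 0.915 and 1.14 and IFITM3 at 1.57, 1.10, 1.24, 0.723 and 1.30 in the authors' deposited table, none of them called. These genes follow each other on chromosome 11 with gaps of at most 4644 bases and are closely similar in sequence, so reads may have been split among them and their separate values are uncertain.

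Of the IFIT genes, which bind foreign RNA ends, IFIT5 and IFIT3 were called in more than 1 contrast. IFIT5 stood at 0.975, 0.942, 1.22, 0.894 and 1.09 in the authors' deposited table for RNA-seq, called higher in contrasts 3 and 5 and lower in contrast 4. In GRO-seq it stood at 0.737, 0.740, 0.717, 0.790 and 1.05 in the authors' deposited table, called in none. IFIT3 was 1.27-fold and 1.37-fold higher in contrasts 3 and 5 of the authors' deposited table for RNA-seq. IFIT2 was called in no contrast of either assay, and IFIT1 in RNA-seq contrast 1 alone.

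The remaining calls outside contrast 1 were few. In RNA-seq contrast 2, EPSTI1 was lower at 0.509 in the authors' deposited table (log2 -0.97 ± 0.30, adjusted p = 0.023), the reverse of its direction in contrast 1. In contrast 3, IFI35 at 1.33 and HERC6 at 1.25 were higher, and IFI44L at 0.665 and OAS1 at 0.758 were lower, in the authors' deposited table. OAS2 reached 2.58 and IFI27 2.52 in RNA-seq contrast 4 of the authors' deposited table without a call (adjusted p = 0.12 and 0.11). TRIM22 was 1 of the 4 genes called lower in contrast 5, with the 3 IFITM genes. The members never called in RNA-seq were DDX58, STAT2, ISG15, HERC5, IFIT2, ISG20, RSAD2, CMPK2, PARP9, IFI6 and IFI44. Of these, CMPK2 and RSAD2 had implied standard errors between 0.59 and 0.73 in RNA-seq, wide enough that a 2-fold change would not have been called.

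Genes that lie next to each other were compared, since members of several of these families arose by duplication. The pairs were chosen by distance alone and include genes of different families, such as DTX3L and PARP14. There were 14 pairs of neighbouring members within 200000 bases. In RNA-seq contrast 1 both were called the same way in 1 pair, MX2 and MX1, which lie 11164 bases apart and differed greatly in size of change. Both were called opposite ways in 2 pairs, OAS1 with OAS3 and OAS3 with OAS2, which follow each other with gaps of at most 5267 bases. In contrast 3 both were called the same way in 3 pairs, from the IFITM and SAMD9 loci. In contrast 5 this held for 2 pairs, both from the IFITM locus and sharing IFITM1. PARP9 and DTX3L overlap by their annotated ends, as do CMPK2 and RSAD2. No source used here says that reads were assigned by strand, so the values of those 4 genes are uncertain.

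The wider interferon pathway was described with 99 further genes in 6 lists, which were also chosen with earlier results of these data known. Of these, 76 were analysed in GRO-seq and 88 in RNA-seq. In RNA-seq contrast 1, 39 were higher and 17 lower (44.3% and 19.3%), against 23.2% and 20.7% of all genes. In RNA-seq contrast 2, 2 were higher and 9 lower (2.27% and 10.2%, against 9.64% and 9.63% of all genes), and in contrast 3, 23 and 17 (26.1% and 19.3%, against 18.3% and 17.8%). In contrast 4, 1 was higher and 8 lower (1.14% and 9.09%, against 3.87% and 4.9%), and in contrast 5, 15 and 12 of the 88 (against 10.5% and 10.9%). In GRO-seq contrast 2, 4 were higher and 7 lower (5.26% and 9.21%, against 7.63% and 7.83% of all genes), and in contrast 3, 13 and 2 (17.1% and 2.63%, against 9.23% and 8.92%). GRO-seq contrast 1 had 1 higher and 0 lower (0.292% and 0.495% of all genes), contrast 4 had 0 and 2 (1.58% and 1.53%), and contrast 5 had 0 and 0 (0.115% and 0.122%).

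Upstream in the pathway, of 10 ligand genes the 3 analysed in RNA-seq (IFNE, IFNK and IFNL1) were called in no contrast. Receptors and kinases gave 3 higher and 2 lower of 9 in RNA-seq contrast 1, with TYK2 at 1.25 and IFNGR1, a chain of the gamma receptor, at 0.668 in the authors' deposited table. Of all genes 23.2% were higher and 20.7% lower in that contrast, and no list was tested against these shares. Of the sensing genes 4 were higher and 1 lower of 13. Feedback genes gave 4 higher and 2 lower of 9, led by SOCS3, a receptor inhibitor, at 5.04 in the authors' deposited table. Of other interferon-induced genes 16 were higher and 7 lower of 31, among them APOL1 at 4.09 and the coactivator HELZ2 at 1.62 in the authors' deposited table. Of gamma-response and antigen presentation genes 12 were higher and 5 lower of 23. There CD274, which encodes PD-L1, stood at 2.08, the guanylate-binding protein GBP1 at 1.74 and NLRC5, the activator of MHC class I genes, at 1.71, while GBP2 stood at 0.381, in the authors' deposited table.

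In contrast 3 several of these genes were higher in GRO-seq and lower in RNA-seq, each of them called. TNFSF10, the death ligand TRAIL, stood at 22.5 in the authors' deposited table for GRO-seq and at 0.561 in that for RNA-seq. GBP2 stood at 11.2 and 0.655, IFNGR1 at 4.26 and 0.916, and IFI16, a DNA sensor, at 2.08 and 0.847 in the same order, as given in the authors' deposited table for each assay. The pattern was the same for SLFN5 and for HLA-E. In all, 6 of the 76 genes analysed in both assays (7.89%) were called higher in GRO-seq and lower in RNA-seq, against 2.89% of 13772 genes, and none of the 37 members was. Opposite changes were common among all genes in contrast 3. Of 1251 genes called in both assays, 829 went opposite ways and 422 the same way, and 46.4% of all genes changed in the same direction. Whether contrast 3 is the same comparison in both assays was not tested. The difference between assays was -5.32 ± 0.91 for TNFSF10 (adjusted p = 1.6e-04), -4.09 ± 0.50 for GBP2 and -2.22 ± 0.28 for IFNGR1 on the log2 scale. TLR3, the endosomal RNA sensor, at 3.19, GBP1 at 3.02, the peptide transporter TAP1 at 2.23 and JAK1 at 1.75 were also called higher in the authors' deposited table for GRO-seq contrast 3. Beside these, of the 6 leukocyte markers analysed in that contrast 1 was higher (ITGAM at 5.02) and 1 lower (CSF1R at 0.270). Of all genes 9.23% were higher and 8.92% lower there. The part of these markers in the result was not tested.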

How the data were processed

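The fold changes (linear ratios) and unadjusted p-values were computed by the authors and are used as deposited, for 5 contrasts per assay whose groups the file headers do not name. The submitters' processing notes list, for GRO-seq, limma, featureCounts and BWA 0.7.16a, for RNA-seq, DESeq and STAR, and for both the build GRCh38. The p-value columns of both assays carry the name limma gives them, so which program gave the RNA-seq p-values is uncertain. Settings, annotation, filters and strand use are stated in none of the sources used here. The tables hold no values per library, so depth is unknown.

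Adjustment of the p-values followed Benjamini and Hochberg, contrast by contrast, over 14745 genes (GRO-seq) and 15535 (RNA-seq, leaving out 156 rows without a symbol). The implied standard error is the log2 fold change divided by Student's quantile at its p-value, with 24 (GRO-seq) and 30 (RNA-seq) degrees of freedom, at which a gene's 5 errors vary least. The difference between assays used both errors with Welch-Satterthwaite degrees of freedom. Named genes are members with a call, with all values for those called in at least 3 RNA-seq contrasts or any GRO-seq contrast, up to 4 called genes of a pathway list per contrast by adjusted p, and 6 anchor genes; other genes are named where a count needs them. Members, lists and rules were chosen with earlier results of these data known. Steps were tested on simulated data. DDX58 was matched to RefSeq through its synonym. Python 3.11.15, pandas 2.3.3 and scipy 1.17.1 were used.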

Additional observations from a re-analysis of the deposited data

How the results depend on the processing

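No paired analysis was possible because the tables used here hold comparisons and no values per library; for the same reason no replicate could be left out. Adjusting over all rows or over genes in both assays, and a normal quantile for the standard error, moved no count of members by over 1.5 times. At an adjusted p under 0.01, GRO-seq gave 0 higher and 0 lower in contrast 2 and 0 lower in contrast 3; RNA-seq gave 5 lower in contrast 1, 0 higher and 0 lower in contrast 2, 2 lower in contrast 3, 0 lower in contrast 4 and 2 higher in contrast 5. At an adjusted p under 0.1, GRO-seq gave 1 higher in contrast 1, 2 higher and 2 lower in contrast 2, 10 higher in contrast 3, and 1 higher and 1 lower in contrast 4; RNA-seq gave 2 higher in contrast 4 and 8 higher in contrast 5, and the difference between assays 5, 2, 8, 1 and 1 in contrasts 1 to 5. With at least 1.5-fold required, RNA-seq gave 4 higher and 6 lower in contrast 1, 0 higher and 1 lower in contrast 2, 1 higher and 2 lower in contrast 3, 0 and 0 in contrast 4, and 1 and 1 in contrast 5. Groups of a contrast, levels and strand use are not given, and near-identical or overlapping genes are uncertain.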
